A study of Mus musculus with 8 samples.

Results

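Open chromatin was described at 7 genes of the ETS family of transcription factors, Ets1, Ets2, Fli1, Elf1, Etv6, Elk3 and Gabpa, in mouse CD4 T cells, either controls or deficient in Tet1 and Tet3. The genes were chosen with results of these data known, selected on which libraries listed their peaks and at what rank. Their regions were every deposited peak that overlapped the GRCm38 gene body extended by 10 kb on both sides, out of 21887 protein-coding genes in the RefSeq gene table. These windows held 1156 of the 835203 peaks deposited for 8 libraries. Merging peaks that overlapped by at least 1 bp gave 218 of 175276 regions.

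The assay was ATAC-seq, in which a transposase inserts adapters into open DNA, and the question of the design was how loss of Tet1 and Tet3 changes open chromatin under TGF-β, with or without IL-2. Naive CD4 T cells were sorted from spleen, activated through CD3 and CD28 in 20 ng/mL TGF-β and harvested at 48 h, and 90000 cells were tagmented per sample. The 4 groups of 2 libraries each were control cells without added IL-2, control cells with 100 U of IL-2, and cells labelled cDKO (conditional double knockout of Tet1 and Tet3) without and with the same IL-2. All groups therefore shared the activation and the TGF-β. The titles call the Tet1- and Tet3-sufficient cells control, and the cell type label calls them WT. The sources used here do not give the Cre line or promoter that drives the deletion, the age of the mice, or the animals behind each library. The replicates are called biological in the design text, and each p-value reflects the spread among the 8 libraries alone.

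ETS proteins share a winged helix-turn-helix domain that binds DNA around the core GGAA. ETS1 is a main ETS factor of resting T cells and is needed for normal T cell survival and regulatory T cells, and its DNA binding is helped by the partner RUNX1. ETS2 is its close relative and is activated by phosphorylation, FLI1 acts in blood and lymphoid cells, and ELF1 is abundant in lymphocytes. GABPA binds with GABPB subunits at many housekeeping promoters. ETV6 and ELK3 act mainly as repressors, ETV6 through a pointed domain and ELK3 as a partner of SRF. TET1 and TET3 oxidise methylated cytosine in DNA, and methylation of the CpG next to the core weakens binding by several ETS proteins.

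RefSeq promoters (GRCm38.p6, 250 bases before to 50 after a start) were matched for 5 of the 7 genes, with 6 entries because Elf1 has 2 starts; Ets1 and Fli1 were not matched. The promoters below carry the strongest start-site region (Gabpa), the most ETS cores (Etv6), the start of the gene with the strongest region outside a start (Ets2) and the CpG-poor start of Elf1. They are written 5′ to 3′ on the gene's strand, and the capitals mark GGAA on either strand (GGAA or TTCC). They lie on chromosome 16, 84834874 to 84835173, plus strand (Gabpa), chromosome 6, 134035450 to 134035749, plus strand (Etv6), chromosome 16, 95702157 to 95702456, plus strand (Ets2), and chromosome 14, 79515424 to 79515723, plus strand (Elf1, start 2).
Gabpa: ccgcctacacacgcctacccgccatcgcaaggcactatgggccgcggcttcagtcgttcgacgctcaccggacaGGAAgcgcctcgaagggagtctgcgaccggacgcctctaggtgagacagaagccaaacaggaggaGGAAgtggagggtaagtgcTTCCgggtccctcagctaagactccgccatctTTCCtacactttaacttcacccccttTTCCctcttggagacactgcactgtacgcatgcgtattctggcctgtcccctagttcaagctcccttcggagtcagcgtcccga
Etv6: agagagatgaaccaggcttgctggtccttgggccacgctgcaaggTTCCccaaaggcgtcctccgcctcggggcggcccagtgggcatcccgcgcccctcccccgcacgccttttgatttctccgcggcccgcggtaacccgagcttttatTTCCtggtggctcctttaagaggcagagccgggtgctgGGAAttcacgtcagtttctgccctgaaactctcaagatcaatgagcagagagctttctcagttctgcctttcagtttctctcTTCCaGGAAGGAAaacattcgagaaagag
Ets2: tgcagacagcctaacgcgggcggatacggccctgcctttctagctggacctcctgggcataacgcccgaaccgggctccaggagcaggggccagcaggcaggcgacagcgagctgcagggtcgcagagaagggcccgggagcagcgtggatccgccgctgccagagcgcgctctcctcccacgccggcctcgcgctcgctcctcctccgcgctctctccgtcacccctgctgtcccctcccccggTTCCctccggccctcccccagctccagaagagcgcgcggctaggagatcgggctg
Elf1 start 2: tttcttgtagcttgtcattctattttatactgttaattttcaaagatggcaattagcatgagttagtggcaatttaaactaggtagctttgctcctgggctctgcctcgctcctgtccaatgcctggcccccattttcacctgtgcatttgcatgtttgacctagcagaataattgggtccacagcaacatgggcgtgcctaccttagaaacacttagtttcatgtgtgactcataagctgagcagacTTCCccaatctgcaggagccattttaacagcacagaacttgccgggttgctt
The Etv6 promoter held 6 matches to GGAA, and the last 3 began 21, 26 and 30 bases after the start site. The Gabpa promoter held 5 matches, beginning from 176 to 34 bases before the start. Elk3 held 2, Ets2 held 1 and the Elf1 starts held 2 and 1. Of 32851 promoters of the same length, 96.0% held at least 1 match and the median was 3, so the counts here ran from below to above the usual number.

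A longer motif, CCGGAAG, which contains the core, was found on either strand in the Gabpa promoter alone among the 6, where it overlaps the core that begins 92 bases before the start. It occurred in 8.86% of all promoters. The Sp-type motif GGGCGG was found in Elk3 (2 matches), Elf1 start 1, Ets2 and Etv6 (1 match each), against 35.7% of promoters with a match. The CRE motif TGACGTCA was in none of the 6 and in 1.79% of all. A match describes letters in this window only. CpG number separated the promoters more clearly: 43 at Elf1 start 1, 31 at Elk3, 30 at Ets2, 22 at Gabpa and 17 at Etv6, against 3 at Elf1 start 2 and a median of 7 over all promoters. Elf1 start 1 exceeded 97.4% of promoters in CpG number, and Elf1 start 2 exceeded 23.3%.

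All 6 of these starts lay in regions that every library listed. A region's rank is the place of its strongest peak in a library's list by the authors' −log10 p-value, with 1 the strongest of all. The Gabpa start region (chromosome 16, 84834451 to 84836394) ranked 860 and 1845 in control without IL-2, 3509 and 2368 in cDKO without IL-2, 2329 and 1644 in control with IL-2, and 1785 and 3365 in cDKO with IL-2. It stood in the top 3509 peaks of every list, and the genotypes overlapped. The Ets2 start ranked between 4261 and 11238 over the 8 libraries, the Etv6 start between 6401 and 17217, and the Elk3 start region between 11834 and 15964. That Elk3 region is 2351 bp wide, and its strongest peak was not always the one at the start. The peak nearest the Elk3 start ranked between 12477 (cDKO without IL-2, replicate 1) and 25709 (control without IL-2, replicate 1). Elf1 start 1 ranked between 8148 and 23636 and Elf1 start 2 between 10254 and 22455, so the CpG-rich and CpG-poor starts of this gene had similar ranges.

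**Figure D1:**
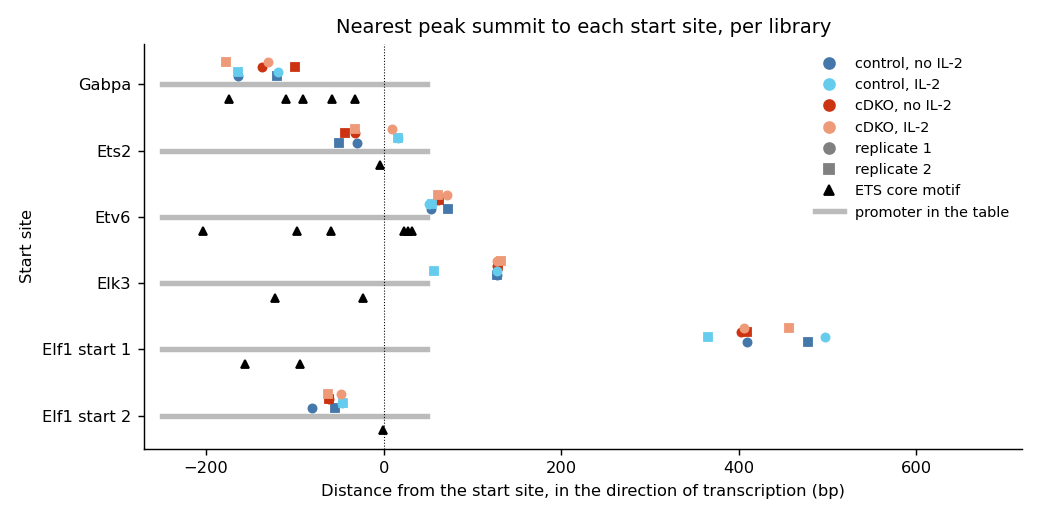
Distance in bp from the start site of each member to the nearest peak summit, 1 point per library, negative values before the start in the direction of transcription; grey bars span the promoters of the RefSeq table and triangles mark GGAA on either strand. The Etv6 summits sit 51 to 73 bp after the start, and those of Gabpa 178 to 100 bp before it.

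Summits lay in a narrow range at most of these starts. The summit is the point of highest signal within a peak, as the authors' caller gave it. At Etv6 it lay 51 to 73 bp after the start in the 8 libraries, a range of 22 bp, beyond the 3 ETS cores that begin 21, 26 and 30 bases after the start in the sequence above. At Gabpa it lay from 178 to 100 bp before the start, around a median of -133.5 bp, in the part of the promoter that holds the cores beginning at -176 and -111. The Ets2 summit lay between -50 and 16 bp. The 2 starts of Elf1 differed: the summit lay 366 to 498 bp after start 1 and 81 to 46 bp before start 2. At Elk3, 7 of the 8 summits lay 128 to 132 bp after the start, and replicate 2 of control with IL-2 had it at 57 bp.

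Ets1 and Fli1 had weak or no regions over the ends of their gene bodies. The table gives them no strand here, so both ends were examined. A region over the lower-coordinate end of Ets1 (chromosome 9, 32635704 to 32636371) ranked 54976 and 69070 in control without IL-2, 80547 and 61150 in cDKO without IL-2, 51433 and 41717 in control with IL-2, and 69290 and 61139 in cDKO with IL-2. No region covered the other end of Ets1 or either end of Fli1. The nearest summits were 1060 to 2093 bp above the higher end of Ets1, at -1303 to -1256 bp from the lower end of Fli1 and at -3219 to -1877 bp from its higher end, with minus for lower coordinates. The Fli1 peaks ranked 20864 to 47158 and 24615 to 66019, in that order. A region 1.62 kb above the higher end of Ets1 was in all 8 equal-number lists, at 27141 to 58790. The start sites used by either gene in these cells were not located.

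Lists differed in length, from 65811 peaks (control with IL-2, replicate 2) to 145979 (control without IL-2, replicate 1). Each library was therefore cut to its 65811 strongest peaks, the equal-number list. In these lists 132 of the 218 member regions appeared in at least 1 library, out of 95899 such regions in all; the remaining member regions were weaker peaks outside every equal-number list. The lists do not state read depth. As a check of the cells, 8 of 8 T cell marker genes (Cd3e and Cd4 among them) and 5 of 5 markers of induced regulatory T cells (Foxp3 among them) had a region in all 8 libraries. So did 4 of 5 B cell, 4 of 5 myeloid, 3 of 4 CD8 and NK and 3 of 3 erythroid marker genes, so that a listed region near a gene did not separate cell types; of these genes, Ncr1 had no region in any library. Summed B cell marker regions numbered 14 to 16 in control and 15 to 18 in cDKO libraries, and myeloid ones 13 to 17 and 15 to 18, and their part in the results was not tested. In these bulk lists, fewer cells with an open region and less opening per cell cannot be told apart.

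The members carried from 2 to 35 regions each. Ets1 (chromosome 9, 32636241 to 32757820) had 35 regions in the equal-number lists, Etv6 (chromosome 6, 134035700 to 134270158) 31, Fli1 (chromosome 9, 32422204 to 32543432) 25 and Elf1 (chromosome 14, 79481174 to 79582491) 20. Elk3 (chromosome 10, 93247415 to 93311159) had 15, Ets2 (chromosome 16, 95702407 to 95721049) 4 and Gabpa (chromosome 16, 84834891 to 84863783) 2. Per 100 kb of window, the median library listed 17.7 regions at Ets1, more than at 97.3% of protein-coding genes, 14.3 at Elk3, 12.8 at Elf1, 12 at Fli1, 9.06 at Ets2, 8.25 at Etv6 and 2.05 at Gabpa. The median over all genes was 4.5, so 6 of the 7 loci were above it. The windows of Elf1 (Wbp4, Sugt1), Etv6 (Gm46977), Elk3 (Cdk17) and Gabpa (Jam2, Atp5j) also reach other genes. Regions were not assigned between a member and its neighbour.

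At the window edge, the nearest region just inside the limit lay from 2.0 to 9.56 kb outside the gene, and the nearest just beyond it from 10.68 to 33.15 kb. At Ets2 the region 12.63 kb above the gene, outside the window, was listed in all 8 libraries, as was the one 7.52 kb above it inside the window.

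**Figure D2:**
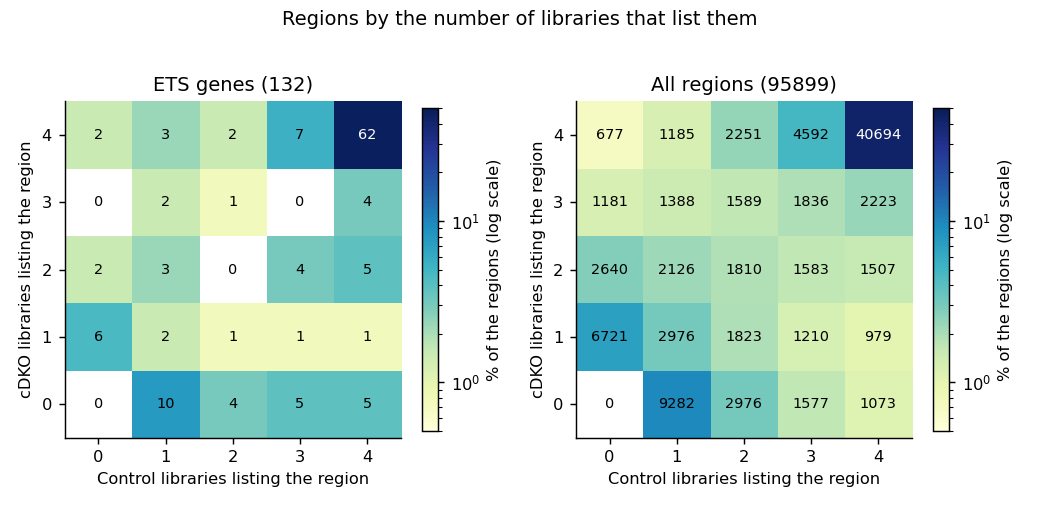
Regions of the 7 members (left, 132) and of the whole series (right, 95899) counted by how many control libraries (x axis) and cDKO libraries (y axis) list them in the equal-number lists; the printed number is the count and the colour its percentage on a log scale. The corner with 4 on both axes holds 62 member regions, the corner with 4 control and 0 cDKO libraries 5, and the opposite corner 2.

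Most member regions were present in both genotypes. Of the 132, 62 (47.0%) were in all 8 equal-number lists, against 42.4% of all regions and 44.8% of regions within 10 kb of a protein-coding gene. Listing was part of how the genes were chosen and regions of 1 gene are not independent, so these shares carry no test. The 62 comprised 16 at Ets1, 14 at Etv6, 11 at Elf1, 10 at Fli1, 7 at Elk3, 3 at Ets2 and 1 at Gabpa. More control than cDKO libraries listed 40 member regions (30.3%, against 25.3% of all regions), and more cDKO than control libraries listed 28 (21.2%, against 25.4%). Etv6 and Ets1 leaned to control, with 13 against 3 regions and 13 against 5. Elk3 leaned to cDKO, with 7 regions listed by more cDKO libraries and 1 by more control libraries. Fli1 (7 and 8) and Elf1 (4 and 5) were balanced.

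The strongest constant region lay away from the matched starts at Ets2, Elf1 and Etv6. For Ets1 and Fli1, whose starts were not located, its place relative to the start is unknown. At Ets2 it was 7.52 kb beyond the higher end (chromosome 16, 95728566 to 95729299). It ranked 567 and 653 in control without IL-2, 1155 and 846 in cDKO without IL-2, 794 and 2539 in control with IL-2, and 2019 and 1333 in cDKO with IL-2. Its fold over background, the authors' value, ran from 13.9 to 15.5, and the genotypes overlapped. At Elf1 it was 4.58 kb beyond the higher end (chromosome 14, 79587069 to 79588085). That region ranked 3038 and 2056 in control without IL-2, 2446 and 1130 in cDKO without IL-2, 3759 and 1385 in control with IL-2, and 2553 and 1651 in cDKO with IL-2. It was in the top 3759 peaks of every library.

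Inside the Etv6 body, 216.6 kb from its lower end, a region at 134251867 to 134252656 ranked 2267 and 2229 in control without IL-2, 6428 and 1669 in cDKO without IL-2, 2619 and 2775 in control with IL-2, and 3854 and 5156 in cDKO with IL-2. This constant region lies in the same gene as the genotype-called regions below. In Fli1 the strongest region (32486828 to 32488171) ranked 5600 and 6701 in control without IL-2, 12093 and 7754 in cDKO without IL-2, 8852 and 9857 in control with IL-2, and 11804 and 7141 in cDKO with IL-2. In Ets1 (32695604 to 32696563) the ranks were 21386 and 5675 in control without IL-2, 10351 and 13942 in cDKO without IL-2, 10179 and 9107 in control with IL-2, and 7325 and 12546 in cDKO with IL-2. Ets1, with the most regions, thus had no region as strong as those of Ets2, Gabpa or Elf1. At Elk3 and Gabpa the strongest region was the one at the start.

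A region was called for genotype when all 4 equal-number lists of one genotype held it and all 4 of the other lacked it. Higher and lower refer to cDKO. At the members 2 regions were higher (1.52%, against 0.706% of all regions) and 5 were lower (3.79%, against 1.12%). All of the higher calls and 3 of the lower ones were in Etv6, and the other lower calls were 1 each at Ets1 and Ets2; Fli1, Elf1, Elk3 and Gabpa had none. Without Etv6 the counts were 0 higher and 2 lower of 101 regions (1.98%), against 0.654% higher and 1.11% lower outside chromosome 6. Of the 10 member regions in exactly 4 equal-number lists, the only ones a call can take, 2 were higher and 5 lower, against 11.0% higher and 17.4% lower among all such regions. Over the full deposited lists 0 of the 218 regions were higher (background 0.294%) and 3 lower (0.289%). Without replicate 2 of the IL-2-free control group the member counts were 4 higher and 8 lower. Leaving out a library can only keep or raise such counts, and the share of all regions was not computed for it. Listing was part of how the genes were chosen, so these counts carry no test.

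**Figure D3:**
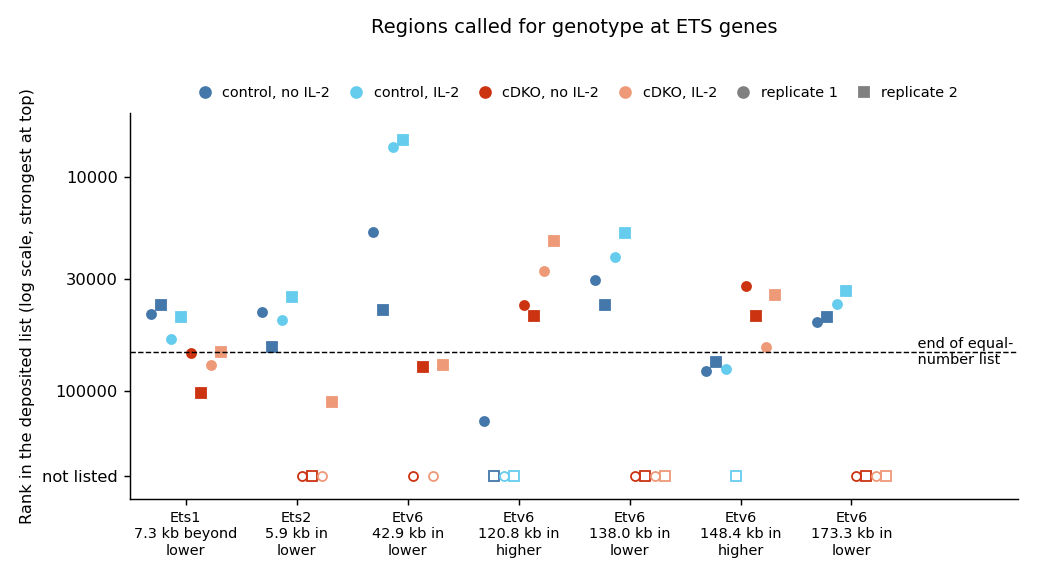
Rank in the full deposited list (log axis, strongest at the top) of the 7 genotype-called member regions in each library, with unlisted libraries marked apart. The dashed line is the limit of the equal-number lists, 65811; colours give the group and shapes the replicate. Etv6 at 138.0 and 173.3 kb is unlisted in all 4 cDKO libraries, whereas Ets1 is listed in all 8, with its cDKO ranks from 66069 to 102227.

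Etv6, the repressor gene, had both lower and higher calls along 1 gene body. The region 138.0 kb from its lower end (chromosome 6, 134173473 to 134173958) ranked 30205 and 39814 in control without IL-2 and 23721 and 18354 in control with IL-2, and no cDKO library listed a peak there. The region at 173.3 kb (134208845 to 134209105) ranked 47848 and 45270 in control without IL-2 and 39400 and 34294 in control with IL-2, and it too was absent from all 4 deposited cDKO lists. Neither depended on the limit at 65811 peaks.

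The region at 42.9 kb (134078088 to 134079154) was strong in control with IL-2, at ranks 7239 and 6716, and ranked 18122 and 41861 in control without IL-2. In cDKO it was unlisted in replicate 1 of both groups and ranked 77453 without and 75555 with IL-2 in replicate 2. It was thus weaker, but not absent, in cDKO. A 4th region at 170.0 kb (134205411 to 134205930) was called lower by the deposited lists alone: it ranked 39698 and 78905 in control without IL-2 and 39182 and 35372 in control with IL-2, and was unlisted in cDKO.

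The higher regions of Etv6 lay between these. At 120.8 kb (134156227 to 134156705) the ranks were 39623 and 44879 in cDKO without IL-2 and 27688 and 19954 in cDKO with IL-2. Of the control libraries, replicate 1 without IL-2 listed it at 139100 and the other 3 did not. At 148.4 kb (134183686 to 134184586) cDKO ranked 32415 and 44711 without IL-2 and 62175 and 35841 with IL-2. Control ranked 80648 and 73785 without IL-2 and 78796 in replicate 1 with IL-2, with replicate 2 unlisted. Both higher calls rest on the length limit, since deposited lists of control hold these regions further down.

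**Figure D4:**
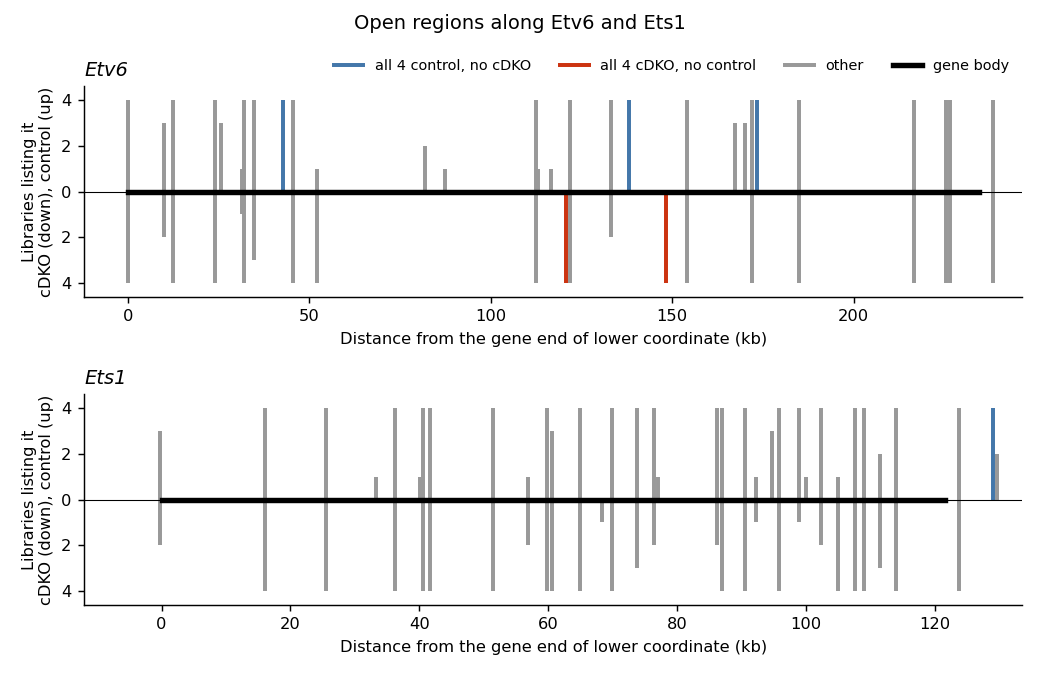
Regions along Etv6 and Ets1 plotted by distance from the lower end of the gene body (kb), with bars for the number of equal-number lists that hold each, control upwards and cDKO downwards, and the called regions in colour. At Etv6 the lower calls lie at 42.9, 138.0 and 173.3 kb and the higher ones at 120.8 and 148.4 kb.

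The surroundings of Etv6 also differed. Of its 31 regions 5 were called (16.1%), against 22 of 285 (7.72%, 10 higher and 12 lower) in the rest of chromosome 6 from 130 to 140 Mb, 1.6% higher and 1.34% lower over the whole of chromosome 6, and 1.76% in either direction on all other chromosomes. On either side, 1.87% of regions were called from 120 to 130 Mb and 5.58% from 140 to 150 Mb. Tet3, one of the deleted genes, lies on the same chromosome, and its distance from Etv6 was not examined. The position of Tet1, the other deleted gene, was not compared with any member. Shares by stretch of chromosome were computed for chromosome 6 alone. An effect of the deleted alleles and a difference between the mice of the 2 genotypes around Etv6 cannot be told apart with these lists.

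At Ets2 the called region lay inside the gene, 5.9 kb from its lower end (chromosome 16, 95708160 to 95708447). It ranked 42859 and 62279 in control without IL-2 and 46754 and 36315 in control with IL-2. In cDKO it was listed only in replicate 2 with IL-2, at 113544. At Ets1 the called region lay 7.32 kb beyond the higher end (chromosome 9, 32765138 to 32765518). Its ranks were 43767 and 39607 in control without IL-2, 57312 and 44974 in control with IL-2, 66988 and 102227 in cDKO without IL-2, and 75444 and 66069 in cDKO with IL-2. All 8 libraries listed this Ets1 region, and 2 cDKO libraries missed the limit narrowly. By both kinds of list 0 regions were called higher (background 0.0302%) and 2 lower (background 0.137%), the Etv6 regions at 138.0 and 173.3 kb.

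Some of the 62 constant regions kept their place in every list but changed rank. For genotype, 5 ranked better in every cDKO than in every control library (8.06%, against 6.15% of all constant regions), and 7 ranked worse (11.3%, against 5.72%). The 5 became 8 without the first control library lacking IL-2 and 10 without the second control library given IL-2. With a library left out such counts can only stay or rise, and the share of all regions was not computed. In Ets2 a region 10.9 kb into the gene (95713121 to 95713404) ranked 26949 and 39966 in control without IL-2, 48989 and 45139 in control with IL-2, 20155 and 16084 in cDKO without IL-2, and 16401 and 19514 in cDKO with IL-2. The Ets2 region 5.9 kb into the gene went the other way. In Elf1 a region 18.6 kb into the gene (79499292 to 79500156) ranked 11204 and 15466 in control without IL-2, 18056 and 11881 in control with IL-2, 36382 and 47669 in cDKO without IL-2, and 44688 and 47054 in cDKO with IL-2. It was the only constant Elf1 region whose ranks did not overlap between genotypes.

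Fli1 had 2 regions of worse rank in cDKO. At 32436720 to 32438173 the ranks were 25711 and 26640 in control without IL-2, 29498 and 14798 in control with IL-2, 46275 and 50801 in cDKO without IL-2, and 56712 and 50154 in cDKO with IL-2. At 32494754 to 32495166 the median rank was 13112 in control and 32199 in cDKO. Etv6 had 3 worse regions (24.0, 172.1 and 184.8 kb) and 1 better (225.4 kb), Ets1 1 worse and 2 better, and Elk3 1 better. The worse Etv6 regions included one at 184.8 kb with a median rank of 23409.5 in control and 46948 in cDKO.

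IL-2 was compared in the same way, with 4 libraries on each side. No member region was called higher (background 0.348%) or lower (0.229%) with IL-2. Among the constant regions 3 ranked better with IL-2 throughout (4.84%, against 2.77%) and 1 worse (1.61%, against 3.01%). With 1 library left out, when they can only stay or rise, these numbers ran from 3 to 6 and from 1 to 5. The clearest was in Ets1 at 86.9 kb (32722809 to 32723457). It ranked 33941 and 35528 in control and 41435 and 42729 in cDKO without IL-2, and 13410 and 8955 in control and 13884 and 12824 in cDKO with IL-2. The IL-2 and no-IL-2 libraries did not overlap, in either genotype. A 2nd Ets1 region at 107.6 kb moved from a median rank of 25980 without to 17255.5 with IL-2, and the Elf1 start 1 region from 15397 to 10660. The Ets1 region at 41.6 kb was the one of worse rank, from 37782 to 55866.5.

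Within each arm the comparison had 2 libraries a side, which allows only 3 splits, so the counts have no test. The arms share libraries with each other and with the comparisons above. Without IL-2, 7 member regions were higher in cDKO (5.3%, against 3.86%) and 9 lower (6.82%, against 4.19%). With IL-2, 6 were higher (4.55%, against 3.61%) and 11 lower (8.33%, against 3.97%). By both the equal-number and the deposited lists, 0 were higher and 4 lower without IL-2 (backgrounds 0.225% and 0.972%). With IL-2, 2 were higher and 4 lower by both (backgrounds 0.767% and 0.674%). Leaving out 1 library at a time gave 7 to 13 higher and 11 to 17 lower without IL-2, and 7 to 12 higher and 14 to 17 lower with it. The call is then looser for every region, so counts can only stay or rise, and the share of all regions was not computed. The lower calls without IL-2 comprised 4 at Ets1, 4 at Etv6 and 1 at Ets2, and those with IL-2 6 at Etv6, 2 at Ets1 and 1 each at Ets2, Fli1 and Elk3.

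Ets1 had lower calls without IL-2 inside the gene body. At 98.9 kb (32735044 to 32735302) control ranked 39699 and 35687, and cDKO was unlisted in replicate 1 and ranked 76456 in replicate 2. At 86.2 kb (32722263 to 32722543) control ranked 42153 and 41844 and cDKO was unlisted in replicate 1 and ranked 79793 in replicate 2. At 102.4 kb (32738387 to 32738848) control ranked 59512 and 41518 and neither cDKO library listed it. With IL-2 that last region was listed in all 4 libraries, at 24521 and 16213 in control and 31432 and 34332 in cDKO. Whether the difference in calls between the arms exceeds chance was not tested.

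Of the 4 lower Etv6 regions without IL-2, 3 are those called with all libraries. The other one, at 133.2 kb (134168580 to 134169252), had control ranks of 32753 and 40283 and cDKO ranks of 85297 and 96996. With IL-2 it ranked 39603 and 33169 in control and 59047 and 62212 in cDKO, worse than control but within the limit. Etv6 also had a higher call without IL-2 at 52.2 kb (134087714 to 134088020), where cDKO without IL-2 ranked 41552 and 52285, control replicate 1 ranked 75295 and control replicate 2 was unlisted.

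Elk3 and Fli1 carried higher calls. At Elk3, 4.88 kb below the lower end (93242283 to 93242536), cDKO with IL-2 ranked 20424 and 31187, whereas control with IL-2 ranked 71491 in replicate 1 and was unlisted in replicate 2. Without IL-2 the region was listed by all 4 libraries, at 30226 and 39216 in control and 49874 and 35790 in cDKO. Inside Elk3 the regions at 50.5 and 51.1 kb were higher without IL-2 (53921 and 59958, then 57719 and 63758, in cDKO) and that at 52.5 kb was lower with IL-2 (46180 and 48663 in control). In Fli1 with IL-2 the regions at 23.8 kb (56573 and 42565 in cDKO) and 84.1 kb (46796 and 63452) were higher. Control replicate 1 with IL-2 listed the 23.8 kb region at 70705, and neither control library with IL-2 listed the other. The Fli1 region at 71.9 kb was lower with IL-2 (59868 and 57023 in control), and cDKO replicate 2 listed it at 75778. Fli1 without IL-2 had 1 higher region at 77.5 kb, ranked 55214 and 65139 in cDKO. Both control libraries without IL-2 listed it below the limit, at 73069 and 79273. Elf1 had 1 at 54.4 kb, ranked 57472 and 57316 in cDKO. With IL-2, Ets1 was higher at 104.9 kb (36995 and 44109 in cDKO) and lower at 94.7 kb (46485 and 57090 in control). Control replicate 1 listed the 104.9 kb region at 71337, and cDKO replicate 2 listed the 94.7 kb region at 88465.

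For IL-2 within genotypes, control had 1 region higher (0.758%, against 2.39%) and 2 lower (1.52%, against 2.51%), below the background on both sides. These were Fli1 at 71.9 kb (higher), Ets1 at 111.5 kb (65347 and 44695 without IL-2) and Elk3 4.88 kb below its gene (lower). In cDKO 5 were higher (3.79%, against 2.79%) and 4 lower (3.03%, against 2.94%), close to the background. Leaving out 1 library, which can only keep or raise these counts, gave 5 to 9 higher and 3 to 10 lower in control. In cDKO it gave 7 to 11 and 4 to 7. The higher regions included the Ets1 region at 102.4 kb described above and 1 in Fli1 at 99.9 kb (32521941 to 32522303), which no cDKO library listed without IL-2 and which ranked 48357 and 41434 with it. In control the Fli1 region ranked 50905 in replicate 1 and was unlisted in replicate 2 without IL-2, and ranked 39148 and 28366 with it. Ets1 at 86.2 kb and Etv6 at 9.9 kb (53914 and 35799 with IL-2) and 133.2 kb were also higher in cDKO, and Fli1 at 22.3 and 77.5 kb, Elf1 at 54.4 kb and Elk3 at 51.1 kb were lower.

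**Figure D5:**
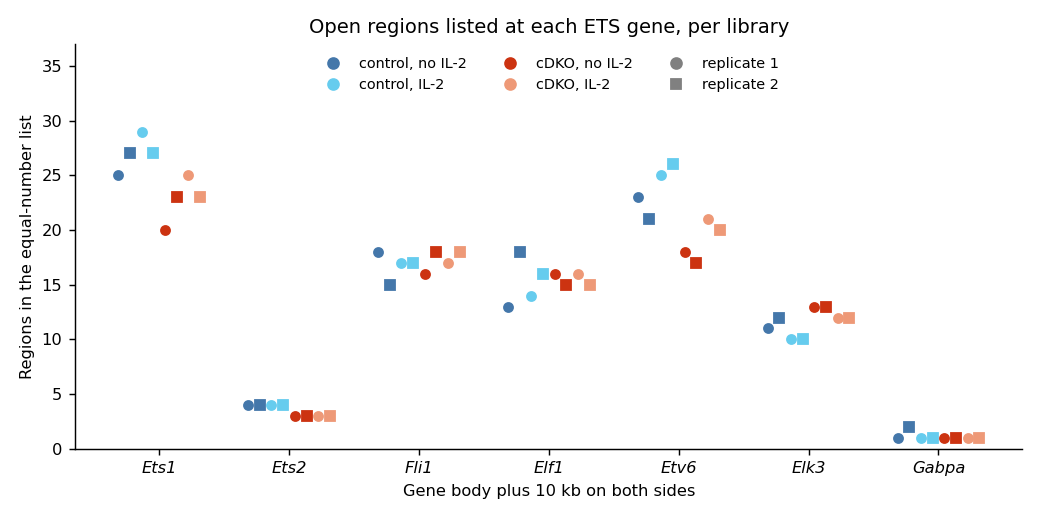
Number of regions listed per library at each member, in the equal-number lists, by group, with 1 point per library. Control libraries hold 25 to 29 regions at Ets1 and cDKO libraries 20 to 25, and for Elk3 the ranges are 10 to 12 and 12 to 13.

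The number of regions per locus gave 1 value for each library. At Etv6, control libraries listed 23 and 21 regions without IL-2 and 25 and 26 with it, and cDKO libraries 18 and 17, and 21 and 20. The means were 23.8 ± 2.22 and 19.0 ± 1.83 (SD, n = 4 each), and the ranges met at 21. At Ets1 the counts were 25, 27, 29 and 27 in control and 20, 23, 25 and 23 in cDKO, again meeting at 1 value. At Ets2 every control library listed 4 and every cDKO library 3, without overlap (1.98% of tested genes were lower without overlap, and 2.2% higher). That difference is the called region 5.9 kb into the gene, counted again. At Elk3 control listed 11, 12, 10 and 10 and cDKO 13, 13, 12 and 12. Fli1 listed 15 to 18 in control and 16 to 18 in cDKO, Elf1 13 to 18 and 15 to 16, and Gabpa 1 or 2 and 1.

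On the scale of log2(regions + 1), the difference of cDKO from control was -0.32 at Ets2, -0.31 at Etv6, -0.24 at Ets1, 0.20 at Elk3, 0.04 at Fli1 and 0.03 at Elf1, and Gabpa had too few regions for a value. These counts come from the same listings on which the genes were selected, so no p-value is given for them. The differences depended on the list length. With the full deposited lists Etv6 was at -0.16, Ets1 at -0.06, Elk3 at 0.06 and Elf1 at -0.12, while Ets2 stayed near its value at -0.31 and Fli1 was at 0.05. The Ets2 genotypes overlapped in those lists, with 5, 4, 5 and 4 regions in control and 3, 3, 3 and 5 in cDKO. Ets2 had no value with gene bodies alone. With gene bodies alone Elk3 was at 0.13, Ets1 at -0.17, Etv6 at -0.32, Fli1 at 0.07 and Elf1 at 0.03. Etv6 was below control under both settings, and the size at Etv6, Ets1 and Elk3 was smaller in the longer lists.

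For IL-2 the log2 difference, with against without, was 0.21 at Etv6, 0.13 at Ets1, 0.04 at Fli1, 0.00 at Ets2, -0.02 at Elf1 and -0.15 at Elk3, again without a test. The ranges with and without IL-2 overlapped at every member, and over all tested genes 0.629% were higher and 0.808% lower without overlap. The genotype difference with IL-2 less that without it was 0.08 at Elk3, 0.05 at Ets1, 0.03 at Elf1 and 0.01 at Etv6.

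Beside the members, 19 other ETS genes and 19 partners and regulators of ETS factors were examined. Their counts were fitted with limma over the 8420 genes with a mean of at least 3 regions, where 0.843% were called higher and 0.784% lower for genotype at a Benjamini-Hochberg adjusted p of 0.05. Of 9 tested other ETS genes, limma called 1 lower and 0 higher for genotype: Etv1, an activator of the PEA3 group (control 7, 6, 7 and 8 regions, cDKO 3, 4, 4 and 4; log2 difference -0.75, limma adjusted p = 0.0193). A floor on the variance, added after the data were seen because whole-number counts repeat, called none of the 8420 genes, with 885 at an unadjusted p under 0.05. The exact permutation test also called none, with 352 at an unadjusted p under 0.05. Its smallest possible p of 0.0286 could not carry a single gene past adjustment over 8420 genes, so it does not bear on Etv1. As limma on the deposited lists called none either, the Etv1 call did not hold under the floor or with those lists. Erg, Elf4 and Elf2, the ones with the most regions, listed 12 to 16, 9 to 10 and 7 to 10 in control and 10 to 14, 8 to 10 and 6 to 7 in cDKO. Of the partners, 12 were tested. Runx1, whose product binds DNA beside ETS1, had 22, 21, 22 and 21 regions in control and 18, 15, 17 and 17 in cDKO, without overlap (-0.34, limma adjusted p = 0.0623). Prkcq (20 to 23 and 19 to 22) and Camk4 (17 to 22 and 16 to 17) were the other large loci. The median log2 difference was -0.10 over the 6 members, 0.00 over the 9 other ETS genes and -0.15 over the 12 partners, against 0.00 over all tested genes. For IL-2, limma called 0.19% of genes higher and 0.154% lower, and for the genotype by IL-2 interaction 0.962% and 1.1%. It called none of the other ETS genes, with a smallest limma adjusted p of 0.406 for IL-2 and 0.815 for the interaction. Of these genes Etv3 and Erg had an unadjusted limma p under 0.05 for IL-2 (0.00782 and 0.0269), and none had one for the interaction.

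Genes whose covered length, the bases under listed regions, rose and fell most like a member's over the 8 libraries were taken as the 2 with the highest Pearson's r among 8418 or 8419 other genes. They were Sdha (r = 0.983) and Srgap2 (0.982) for Ets1, Hagh and Fahd1 (0.966 each) for Ets2, Cdc25a (0.967) and Dcun1d2 (0.965) for Fli1, Srl (0.959) and Grb2 (0.951) for Elf1, Pla1a (0.993) and Sf3b3 (0.976) for Etv6, and Spef1l (0.971) and Slc25a13 (0.969) for Elk3. The 8 points share libraries and list length, and these are the highest of many correlations, so they describe likeness only.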

How the data were processed

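Peak lists of 8 ATAC-seq libraries were deposited by the authors, 1 per library, on GRCm38 (mm10). Per the submitters' processing notes, the tools were MACS2 2.2.7.1, Bowtie2 2.4.1, HOMER 4.11.1, Trimmomatic 0.39, DiffBind 2.10.0, SAMtools 1.3.1, ChIPseeker 1.18.0 and Picard, without roles or order. The sources used here do not give read shifting, duplicate handling or peak thresholds. Each deposited peak carries the authors' fold over background (a ratio), −log10 p-value, −log10 q-value and summit position. The lists hold no read counts, so depth is unknown and no count test applies.

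Peaks were ranked within a library by −log10 p and joined into regions wherever 1 bp or more was shared. Equal-number lists took the 65811 strongest peaks. A region was called when all libraries of one side listed it and none of the other. limma 3.58.1 (R 4.3.3) was run on log2(regions per locus + 1) for genes with a mean of at least 3, with genotype and IL-2 as terms, and tested on simulated data. Exact permutations used 70 relabellings. Python 3.11.15, pandas 2.3.3, NumPy 2.4.6 and SciPy 1.17.1 did the rest.

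The members and gene lists were chosen with earlier results of these data known. The regions described are each member's start region, its strongest region, all regions called with 4 libraries a side, and up to 3 per member and direction with 2 a side. Gene bodies came from RefSeq (GRCm38.p6) without strand or exons, so exon, intron and UTR annotation was not analysed here. The p-values planned for the members' own region counts are not given, since those listings chose the members. A result for 1 gene of the partner list is not reported here. Alternatives changed the list length, window, overlap, q limit and filter, left out libraries and added the replicate block.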

Additional observations from a re-analysis of the deposited data

How the results depend on the processing

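Peak lists give listing and rank, not read counts, and 2 libraries a group limit every comparison. Counts at the members changed with list length. With a library left out they can only stay or rise, and the share of all regions was not computed for those settings. For genotype, the 2 higher calls became 0 with deposited lists, 1 with lists of 32905 peaks and 0 without Etv6, and ran from 2 to 4 with 1 library left out. The 5 lower calls became 3 with deposited and with lists of 32905 peaks, 10 with a looser call, 2 without Etv6 and 5 to 8 with 1 library left out; the values of 4 and 8 came without replicate 2 of control without IL-2. For IL-2, higher calls went from 0 to 1 with lists of 32905 peaks and with a 50 kb window and to 0 to 2 with 1 library left out, and lower calls from 0 to 1 with a looser call and to 0 to 1. Within arms, genotype without IL-2 gave 3 (deposited), 4 (32905 peaks) and 7 to 13 higher (1 library left out) and 11 to 17 lower. The 3 were other regions than the 7 of the equal-number lists, since 0 were called higher by both. Genotype with IL-2 gave 7 to 12 higher, and 6 lower with deposited lists, 17 with 50% cover and 14 to 17. IL-2 in control gave 0 (deposited), 8 (32905 peaks), 3 (50 kb), 2 (50% cover) and 5 to 9 higher, and 6 (deposited), 0 (32905 peaks), 1 (gene body), 1 (q of 0.01) and 3 to 10 lower. IL-2 in cDKO gave 7 to 11 higher, and 2 (32905 peaks) and 4 to 7 lower. By both the equal-number and the deposited lists, IL-2 in control gave 0 higher and 0 lower (backgrounds 0.0448% and 0.272%). IL-2 in cDKO gave 2 higher and 0 lower by both (backgrounds 0.552% and 0.271%). The share in all 8 lists was 35.3% with deposited lists, 31.2% at 32905 peaks and 29.8% with 50% cover. Constant regions of better rank in cDKO numbered 0 at 32905 peaks and 5 to 10 with 1 library left out, and of worse rank 1 and 7 to 10. With IL-2 they numbered 3 to 6 better, and 0 at 32905 peaks and 1 to 5 worse.

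Loci called by limma for genotype (137) became 271 unfiltered, 0 with deposited lists, 48 at 32905 peaks, 85 for gene bodies, 0 with the variance floor, 0 by exact permutation and 127 to 190 with 1 library left out. For IL-2 (29) they became 76, 0, 18, 12, 0, 0 and 52 to 73. For the interaction (174) they became 537, 0 with deposited lists, 70 for gene bodies, 0 with the floor and 335 to 579. The exact permutation had a smallest possible p of 0.0286, which could not carry a single gene past adjustment over 8420 genes. Its 0 for genotype and for IL-2 therefore does not bear on the limma calls. The genotype log2 difference changed sign at 32905 peaks for Ets1 (0.08), Fli1 (-0.33) and Elf1 (-0.34), for Elf1 with deposited lists (-0.12) and with the 1st control library lacking IL-2 dropped (-0.05) or with IL-2 (-0.01, range to 0.12 over the libraries left out), and for Fli1 when the 2nd control library lacking IL-2 was dropped (-0.01, range to 0.09). The causes were not tested. Deviations of region counts by replicate number were barely correlated between groups (r from -0.05 to 0.10). This cannot show whether libraries of the same number shared animals, which the sources do not give. With a replicate block the loci numbered 107 for genotype, 33 for IL-2 and 175 for the interaction.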
